A study of Mus musculus with 4 samples.

Results

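The clustered protocadherin genes of the mouse were examined in forelimb buds by chromatin immunoprecipitation on 2-colour tiling arrays (ChIP-chip). Their members here were all tiled probes of the second array design with positions from 37000000 to 38000000 on chromosome 18, in the coordinates of the array. These were 1205 of the 237185 probes of that design and of the 474380 probes of both designs, and the first design held 0 probes in this window. The probes fell into 56 tiled regions, a region being a run of probes whose neighbouring starts lie at most 1000 bp apart. Both groups came from whole forelimb buds of wild type BDF1 embryos of stage E10.5, fixed for 20 min in 1% formaldehyde and pooled. One group was precipitated with an antibody against RING1B and the other with an antibody against H3K27me3, and each precipitate shared an array with input DNA. Pooled whole buds mix all cell types of the limb bud, so a ratio is an average over them. The window lay on 1 array per antibody, so there was no replicate, no test across samples was possible and no p-value is given.

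Clustered protocadherins are cell adhesion proteins of the cadherin superfamily, best known from neurons, where each cell uses a small set of them and so gains a surface identity. In the alpha and gamma clusters, each of many variable first exons has its own promoter and is spliced to constant exons that lie after the last variable exon. Beta genes have no such constant exons. The variable exons nearest the constant exons of the alpha and gamma clusters are the C-type ones, which differ in sequence and regulation from the others. RING1B is the ubiquitin ligase subunit of Polycomb repressive complex 1, and H3K27me3 is the histone mark made by Polycomb repressive complex 2. Both are known from the promoters of silent developmental genes.

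The RefSeq gene table of GRCm38.p6 lists 14 alpha genes, 22 beta genes and 22 gamma genes on chromosome 18, in rising order of position. Its alpha genes end with Pcdhac1 and Pcdhac2 and its gamma genes with Pcdhgc3, Pcdhgc4 and Pcdhgc5, the C-type members. For the array positions, the sources used here give no build, so no probe was given to a single gene and none of that table's positions was used. Stretches of over 100 kb without probes split the window into 3 blocks. These were read, in the order given for the window, as alpha (37052943 to 37272458, 231 probes), beta (37385541 to 37645657, 450 probes) and gamma (37767678 to 37948020, 524 probes). The gaps between them were 113 kb and 122 kb long. Stretches of over 30 kb without probes split the blocks further, into 7 stretches in all. The end of the gamma block after the last such gap, from 37927077 to 37948020, held 94 probes, and whether it still belongs to the gamma genes was not tested. Variable exons of one cluster resemble each other, and cross-hybridisation between them was not tested.

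Values below are log2(Cy5 / Cy3) of the scanner's processed signals, from which each array's median over its kept probes was subtracted. This opposes the labels, which give Cy3 for the precipitate and Cy5 for the input, and taking the dyes from the labels reverses each sign. The direction was not settled here, and "high" and "raised" refer to Cy5 over Cy3. Over 846 probes of the window kept on both arrays, log2 Cy3 signals of the 2 arrays correlated with r = 0.831 and log2 Cy5 signals with r = 0.622, as a description across probes. Probes were kept when well above background in both dyes, which left 897 of 1205 for RING1B (74.4%) and 1034 for H3K27me3 (85.8%). In the rest of chromosome 18 the kept shares were 85.2% and 81.8%. Of the 308 window probes left out for RING1B, 190 were dim in Cy5 alone. The RING1B ratios of the window thus lack many of the probes with weak Cy5. Neighbouring probes of one region scattered with a standard deviation of 0.78 for RING1B and 0.55 for H3K27me3 in the window, so differences of this size between single neighbouring probes lie within the scatter.

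H3K27me3 ratios were raised across most of the protocadherin window. The median of the 1034 kept probes was 0.56 (quartiles -0.11 and 1.62), against -0.11 (quartiles -1.07 and 0.85) for 8563 kept probes in the rest of chromosome 18. Above 0 lay 70.8% of the window's probes and 46.9% of the others. At 2-fold or more lay 396 probes, 38.3%, where the same count over the rest of the chromosome was 23.5% and over the whole array 24.3%. The window held few probes at the other end, with 5.9% at 2-fold or more in the opposite direction against 26.5% in the rest of the chromosome and 22.2% on the array. The shift ran through most of the distribution: the lower quartile was higher than in the rest of the chromosome by 0.96, the median by 0.67 and the upper quartile by 0.77. It turned only in the upper tail, where the 86th percentile was 2.29 against 2.21 and the 95th was 3.23 against 4.03. At 4-fold or more lay 17.6% of the window's probes, against 15.5% in the rest of the chromosome and 14.5% on the array. The size of the shift depended on the processing. With normexp on the raw signals, and an offset of 50 added to both dyes, the window's median was 0.077 above that of the rest of the chromosome. Ratios were smaller in general there, with an array threshold for called regions of 0.65 in place of 2.9. The values 0.077 and 0.67 are therefore not on the same scale. By signal, log2 Cy5 of all window probes on this array had a median of 10.3 against 9.73 in the rest of the chromosome, and log2 Cy3 9.40 against 9.93.

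RING1B ratios of the window, over the probes kept on that antibody's own array, showed no such shift. Their median was -0.03 (quartiles -0.80 and 0.66), against -0.00 (quartiles -0.76 and 0.85) over 8923 probes in the rest of chromosome 18. At 2-fold or more lay 133 of 897 probes, 14.8%, below the 21.5% of the rest of the chromosome and the 18.7% of the array. The upper tail was short, with a 95th percentile of 1.68 against 3.32, and 29 probes reached 4-fold (3.23%, against 9.53% in the rest of the chromosome and 7.50% on the array). The share at 2-fold or more in the opposite direction, 19.1%, was close to the 19.2% of the rest of the chromosome. Both dyes were dimmer in the window than elsewhere on the chromosome, with medians of all probes of 8.95 against 9.60 in log2 Cy5 and 9.34 against 9.76 in log2 Cy3. The sign of the small RING1B difference from the rest of chromosome 18 depended on the processing. It was -0.03, -0.17 without a filter on dim probes and 0.16 with loess.

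The antibodies therefore parted within the window. Over the 846 probes kept on both arrays, RING1B minus H3K27me3 had a median of -0.89 (quartiles -1.74 and -0.01), against 0.20 over 7868 probes in the rest of the chromosome. H3K27me3 was higher by at least 2-fold at 395 of these probes (46.7%) and RING1B at 42 (4.96%), while in the rest of the chromosome the shares were 18.4% and 20.9%. The arrays are not on a common scale, so this compares array ratios and not occupancy. Relative to the rest of the chromosome the median difference was -1.09, and -0.20 with normexp. Within the window the antibodies still went together in part, with r = 0.508 and rho = 0.429 across probes, against r = 0.729 and rho = 0.630 in the rest of the chromosome. Neighbouring probes share fragments, and these correlations are descriptions.

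At like H3K27me3 ratios, window probes had lower RING1B ratios than other probes of the chromosome wherever H3K27me3 was above the array median. With H3K27me3 under 0 the median RING1B was -0.46 over 234 window probes and -0.45 over 4132 others. From 0 to 1 it was -0.04 (270 probes) against 0.50, and from 1 to 2 it was -0.01 (177 probes) against 0.56. From 2 to 3 it was 0.62 (103 probes) against 1.12, and from 3 to 4 it was 0.98 (41 probes) against 2.32 over 386. At 4 or more it was 2.45 over 21 window probes and 3.91 over 424 others. The quartiles of RING1B from 3 to 4 were 0.31 and 1.59 in the window and 1.32 and 3.54 outside it. RING1B thus started at a like level under 0 and was higher with higher H3K27me3 inside the window too, but by less than outside it. Of the 41 window probes from 3 to 4, 48.8% had RING1B at 2-fold or more, against 82.6% outside the window. At 4 or more the shares were 100% of the 21 window probes and 97.6% of the others. The window's difference from the rest of the chromosome in the bin from 3 to 4 was -1.34, and -1.19 without a filter on dim probes.

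Along the window, H3K27me3 was highest in the last step of the alpha block and in the gamma block's last step before its final gap. The highest RING1B medians lay in the same steps. The gamma block's own end, after that gap, lay under the array median for both antibodies. In steps of 50 kb, median H3K27me3 through the alpha block was 0.26, 0.89, 2.06 and 2.91. RING1B over these steps was 0.31, -0.03, -0.04 and 1.24. Through the beta block the H3K27me3 medians were 0.86, -0.17, -0.64, -0.26, -0.05 and 0.41, and the RING1B medians stayed between -0.54 and -0.03. Through the gamma block H3K27me3 was 0.43, 1.05, 2.46 and, in the step after the last gap, -0.33. RING1B there was -0.52, -0.23, 0.81 and -0.11. Steps held 19 to 135 kept probes for RING1B and 26 to 159 for H3K27me3.

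The alpha block had a median H3K27me3 of 1.14 over 202 kept probes, with 52% at 2-fold or more, and a median RING1B of 0.25 over 176, with 18.8% at 2-fold or more. Its first stretch, 37052943 to 37148692, was raised moderately for H3K27me3 (0.59 over 136 probes) and near the array median for RING1B (0.20 over 119). Near the end of that stretch the region 37125952 to 37139345 reached a top window of 3.30 ± 0.20 for H3K27me3, the top window being the highest mean of 3 neighbouring kept probes, here with the SD over those probes. Its RING1B top window was 1.32 ± 1.19, at other probes. Next came an isolated stretch of 7.72 kb, where region 37212330 to 37218533 had one of the plainest separations of the antibodies. H3K27me3 had a median of 2.25 over 27 probes and a top window of 3.26 ± 0.82, while RING1B had a median of 0.22 over 19 probes and a top window of 0.70 ± 0.16. Its mean of RING1B minus H3K27me3, -2.37 over 19 probes, was the most negative in the window among regions with at least 3 shared probes.

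The last alpha region, 37264583 to 37272458, stood alone after a gap of 46 kb and carried the highest RING1B of the window. Its RING1B top window was 4.06 ± 0.32 and its H3K27me3 top window 4.70 ± 0.06, at overlapping probes (37268520 to 37268911 and 37268696 to 37269268). Within the RING1B top window, H3K27me3 averaged 4.69 ± 0.03. All 36 probes kept for H3K27me3 were above 0, with a median of 2.91, whereas RING1B had a median of 1.24 and its lowest 3-probe mean was -1.16 ± 1.25. The 3-probe windows past the RING1B threshold spanned 2.83 kb and those past the H3K27me3 threshold 4.04 kb, and single probes inside these spans can lie under it. Across its 35 shared probes the antibodies correlated with r = 0.763. Both antibodies were thus highest in the middle of this region. H3K27me3 was also raised from end to end, with a lowest 3-probe mean of 1.09 ± 0.22. The spans depend on each antibody's own threshold and do not compare the widths of the signals.

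For H3K27me3 the beta block was the block nearest the array median, and for RING1B it had the lowest median of the 3 blocks. Its H3K27me3 median was 0.05 over 359 kept probes and its RING1B median -0.26 over 298, with 15.3% and 9.06% at 2-fold or more. RING1B kept 66.2% of the 450 probes, the lowest share of the blocks, and median log2 Cy5 of all its probes was 8.48 on the RING1B array. In 22 regions with a value, the H3K27me3 top windows ran from -0.98 to 2.35 with a median of 0.49. In 23 regions, those of RING1B ran from -1.46 to 1.49 with a median of 0.41. None of them passed an array threshold. The highest RING1B top window of the block, 1.49 ± 0.92, was in its last region, 37636748 to 37645657, where H3K27me3 reached 2.00 ± 0.93. Its second region, 37389417 to 37393311, had the clearest H3K27me3 without RING1B in the block, with medians of 1.21 over 19 probes and -0.10 over 15 and a mean difference of -1.88 over 14. Its H3K27me3 top window was 2.22 ± 0.24.

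The lowest top windows were mostly in the beta block too. The lowest single probes of both antibodies lay in the gamma block, at -2.89 for RING1B and -2.29 for H3K27me3. For RING1B the lowest top windows were -1.46 ± 0.46 in 37559849 to 37561611, -0.99 ± 0.89 in 37542485 to 37544257 and -0.95 ± 0.36 in 37634511 to 37635554. For H3K27me3 they were -0.98 ± 1.24 in 37532413 to 37534491, -0.84 ± 0.70 in 37457821 to 37459945 and, at the start of the gamma block, -0.70 ± 0.25 in 37767678 to 37770766. Among these, the regions of the beta block held 6 to 10 probes and at most 7 kept ones, so they offered few windows from which a top could be taken. That first gamma region held 17 probes and was also among the 3 most towards RING1B, with a mean difference of 0.60 over 12 probes. Region 37526236 to 37527949 of the beta block was the most so, with 1.15 over 3 probes.

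The gamma block before its last gap, 37767678 to 37894350, was raised for H3K27me3 nearly throughout, in a slope towards its end. The median was 1.33 over 385 kept probes, 61.3% were at 2-fold or more, and 90.9% were above 0. Over its 10 regions, the rank correlation of position with the median was 0.867 for H3K27me3 and 0.939 for RING1B. With the end after the gap included, over 12 regions of the gamma block, it was 0.224 for H3K27me3 and 0.776 for RING1B. The slope in H3K27me3 thus holds only for the part before the gap. In the first region the medians were -1.07 for H3K27me3 and -0.52 for RING1B, so the slope began with RING1B above H3K27me3. Over all 337 kept probes of the slope RING1B had a median of 0.04. RING1B minus H3K27me3 was -1.51 at the median here, with H3K27me3 higher by at least 2-fold at 216 of 325 shared probes and RING1B at 2. The longest region of the window, 37792259 to 37822772 (30.5 kb, 130 probes), lay inside this slope. Its H3K27me3 had a median of 1.05 over 122 probes and a top window of 2.59 ± 0.40, under the threshold, and its RING1B had a median of -0.27 over 100 probes.

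The last 3 regions of this slope held all called H3K27me3 windows of the gamma block, which spanned 36.1 kb from 37857705 to 37893782. Windows past the threshold were 8 of 34, 17 of 51 and 4 of 33 in these regions, so the span also covers probes under it. Over its probes H3K27me3 averaged 2.52 ± 1.07 (SD over 122 probes) and RING1B 0.87 ± 1.01 (SD over 113). The highest H3K27me3 top window of the whole protocadherin window, 5.12 ± 0.24, lay at the end of its first region, 37857705 to 37869558. RING1B averaged 2.96 ± 0.84 at the same 3 probes, which was also its top window there. Over the 32 shared probes of that region the mean difference was -2.01. In the second region, 37870685 to 37884212, both tops again fell on the same probes, 37878886 to 37879346, with 4.16 ± 0.80 for H3K27me3 and 3.03 ± 0.42 for RING1B. In the third, 37886337 to 37894350, H3K27me3 reached 3.66 ± 1.12 and RING1B 2.13 ± 0.77, under its threshold. For RING1B, 1 window of 33 in the first region and 1 of 50 in the second passed the threshold, and both were close to it, so these counts do not compare the widths of the antibodies' signals.

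After the last gap the order of the antibodies turned. The 88 probes kept for H3K27me3 from 37927077 to 37948020 had a median of -0.33, and 0 of them reached 2-fold, while the 86 kept for RING1B had a median of -0.11. RING1B minus H3K27me3 was 0.39 at the median over 83 probes. The first region there, 37927077 to 37938758, had the fifth highest RING1B top window of the protocadherin window, 1.58 ± 0.33, where H3K27me3 averaged 0.17 ± 0.35. Its mean of RING1B minus H3K27me3 was 0.66 over 41 probes. This stretch is therefore unlike the gamma stretch before the gap. Without it the window's H3K27me3 median was 0.69.

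Called regions in the window were about as frequent as on the array as a whole. A region was called when its top window passed the array's threshold, 2.7 for RING1B (6.5-fold) and 2.9 for H3K27me3 (7.46-fold), the lowest for which each 100 regions passing it were matched by no more than 5 passing its mirror value below 0. Of the 56 regions, 43 had a value for RING1B and 44 for H3K27me3. For RING1B 3 of 43 were called (6.98%), where the array as a whole had 7.85% and the rest of chromosome 18 had 11.8%. For H3K27me3 6 of 44 were called (13.6%), against 14.1% and 15%. These shares are near those of the array. The 3 called for RING1B were all called for H3K27me3 too, and made up 50% of the H3K27me3 regions, against 73.1% in the rest of chromosome 18 and 53.6% on the whole array. The other 3 were the region ending at 37139345, the region ending at 37218533 and the last region of the gamma slope. The values nearest the thresholds were 2.96 and 2.13 for RING1B and 3.26 and 2.85 for H3K27me3. With dim probes kept in, the RING1B threshold was 4.55 and 0 regions of the window passed it, although the top window of the last alpha region was then 4.22. With normexp the top windows of the regions called above were all smaller, the highest for H3K27me3 being 3.50 in place of 5.12. The thresholds were then 0.75 for RING1B and 0.65 for H3K27me3. At these, 8 regions were called for RING1B (18.6%, against 30.4% on the array) and 10 for H3K27me3 (22.7% against 18.7%). With loess 12 were called for H3K27me3 (27.3% against 13.1%).

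At 2-fold, regions were more frequent than on the array for H3K27me3 and not far from the array's share for RING1B. A top window of 1 or more was found in 22 of 44 regions for H3K27me3 (50%), against 28% in the rest of chromosome 18 and 30.6% on the array. For RING1B it was found in 13 of 43 (30.2%), against 40.2% and 37.5%. By block, H3K27me3 reached it in 6 of 10 alpha, 7 of 22 beta and 9 of 12 gamma regions, and RING1B in 4 of 8, 3 of 23 and 6 of 12. In 41 regions with both values the median top window was 1.04 for H3K27me3 and 0.66 for RING1B, against 0.25 and 0.85 in the rest of chromosome 18. Of these 41, 17 had H3K27me3 higher by at least 2-fold (41.5%) and 2 had RING1B higher by that much (4.88%), where the rest of chromosome 18 had 11.5% and 18.3%. In the direction of the labels, the lowest window was at 2-fold or more in 11 of 44 regions for H3K27me3 (25%), against 61.3% in the rest of the chromosome and 52.6% on the array. For RING1B it was in 25 of 43 (58.1%), against 60.9% and 55.2%.

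Among stretches of equal length, the protocadherin window stood out for H3K27me3 on a moderate scale and not for RING1B. Of 871 windows of 1 Mb with at least 50 kept probes for H3K27me3, 81.2% had a lower median, and of the 784 on autosomes 88%. On chromosome 18 it ranked 10 of 54. For RING1B 48.4% of 870 windows had a lower median. The windows on both sides had H3K27me3 medians of -0.06 and 0.09 and RING1B medians of -0.08 and 0.13, so the raised H3K27me3 was not shared by them. Of 861 windows in a comparison of both antibodies, 160 had H3K27me3 as high, the protocadherin window among them. On the X chromosome lay 67 of these, and their RING1B medians are not given here. Of the 92 other autosomal windows with H3K27me3 as high, 3 had a RING1B median at or under the -0.03 of the protocadherin window. The median RING1B of those 92 was 0.73.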

How the data were processed

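Forelimb bud ChIP-chip values came from 2 arrays of the second design, 1 per antibody. The authors used Agilent Feature Extraction 10.1.1.1 to read the scans, per the file headers. The deposited processed signals are linear intensity values from which this software had taken off background. Uncorrected median signals were also deposited as intensity values. Log ratios of Cy5 over Cy3 stand on the log10 scale per the file headers. The deposited value table is on the log2 scale, and 99.9% and 99.8% of its values lay within 0.001 of those ratios for RING1B and H3K27me3.

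Log2 ratios of processed signals were centred on the median of kept probes, with no loess or quantile step. Control spots, spots flagged as feature outliers, 415 probes without a chromosome position and any probe dim in at least 1 dye, by the scanner's test against background, were left out. Calculations used Python 3.11.15, numpy 2.4.6, pandas 2.3.3 and, for normexp and loess, limma 3.58.1. The calling steps were run on simulated data, with plateaus over whole regions added to independent noise. Such data lack narrow peaks and scatter shared by neighbouring probes, so they do not test the calls made here. Regions named were the 6 highest and 3 lowest top windows per antibody, the 3 largest mean differences each way and the longest region, with a few others described by their place. The members, blocks and rules were chosen with earlier results of these data known. The number of arrays, 1 per antibody, limits the precision. Cell type markers could not be checked, because probes carry no gene names.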

Additional observations from a re-analysis of the deposited data

How the results depend on the processing

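No paired analysis was possible because the numbers 1 and 2 in the titles are different array designs, which share 0 probe names, so each probe has 1 array per antibody. The deposited value table gave the same values. As labelled, Cy3 over Cy5, the H3K27me3 median became -0.56, its difference from the rest of chromosome 18 -0.67, and RING1B minus H3K27me3 0.89, or 1.09 relative to the rest; no threshold was reached in that direction. Over the other settings the H3K27me3 median was 0.068 with normexp, 0.85 with loess, 0.72 without a filter on dim probes, 0.70 with 1 channel above background, 0.76 without centring, 0.67 centred on the rest of chromosome 18, 0.74 with the window narrowed by 100 kb on each side and 0.69 without the end of the gamma block (chosen after seeing the data). Relative to the rest of chromosome 18 it was 0.077, 0.95, 0.93 and 0.90 in the first 4 of these, and 0.85 and 0.80 in the last 2. The RING1B median was 0.16 with loess, -0.16 without a filter and -0.14 with 1 channel above background, and relative to the rest of chromosome 18 it was 0.16, -0.17 and -0.15. RING1B minus H3K27me3 was -0.21 with normexp, -1.14 without a filter, -1.14 with 1 channel, -1.08 without centring, -1.08 narrowed and -1.03 without the end of the gamma block. Relative to the rest it was -0.20 with normexp, -0.93 with loess, -1.33 without a filter, -1.35 with 1 channel, -1.28 narrowed and -1.24 without that end. In the H3K27me3 bin from 2 to 3, RING1B relative to the rest was -0.50, and -0.85 with loess; with normexp too few probes of the window reached these bins. Called regions for RING1B, with the array's share after each, were 8 with normexp (18.6%, 30.4%), 0 without a filter (array 2.79%), 0 with 1 channel above background (array 2.78%), 25 at 1.5-fold (58.1%, 56.7%) and 13 at 2-fold (30.2%, 37.5%). For H3K27me3 they were 10 with normexp (22.7%, 18.7%), 12 with loess (27.3%, 13.1%), 28 at 1.5-fold (63.6%, 37.5%), 22 at 2-fold (50%, 30.6%), 17 at 3-fold (38.6%, 24.2%) and 10 of 88 with regions split at smaller gaps (11.4%, 9.98%). With at least 100 probes per 1 Mb window, 84.4% were lower for H3K27me3. Across the settings, 297 top-window values of named regions were counted as staying on their side of the threshold, 28 as passing it newly and 20 as no longer passing it. The 1.5-fold, 2-fold and 3-fold settings among these lowered the threshold and left the top windows unchanged. In the direction of the labels, where no threshold was reached, uncalled regions counted as staying and called ones as no longer passing. The counts are therefore no measure of stability. The cause of these changes was not tested.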

Other observations

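Other 1 Mb windows of chromosome 18 also combined raised H3K27me3 with RING1B near the array median. In the window from 82000000 the medians were 1.48 for H3K27me3 and 0.22 for RING1B, and in that from 57000000 they were 0.66 and -0.00. In the window from 25000000, H3K27me3 had a median of 3.07, and RING1B, at 0.53, was above the array median as well. Both were high in the window from 81000000, with 2.83 for H3K27me3 and 3.75 for RING1B, and in that from 86000000, with 3.41 and 2.56. These windows were chosen after their values were seen, and no test was made.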
